A study of Mus musculus with 20 samples.

Results

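Interferon response genes are the 36 genes listed below, of 27916 genes measured, and they are described here in the cells of B16-OVA tumours. They are given by name, as known interferon targets, and were listed with earlier results of these data known. The list holds 28 type I-like genes (Isg15, Isg20, Ifit1, Ifit2, Ifit3, Ifit1bl1, Mx1, Oasl1, Oasl2, Oas3, Rsad2, Usp18, Irf7, Irf9, Stat2, Bst2, Zbp1, Ifi27l2a, Rtp4, Xaf1, Ifi35, Ifih1, Parp14, Trim30a, Samhd1, Slfn1, Slfn5 and Slfn8). It also holds 8 gamma-like genes (Irf1, Ifi47, Igtp, Iigp1, Gbp2, Gbp4, Gbp7 and Irgm1).

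Mouse CD8 T cells carrying the OT-I receptor, which recognises a peptide of chicken ovalbumin, were moved into animals with B16 melanoma that expresses this protein. The transferred cells were labelled either wild-type or Tet2-/-, and the tumours were either untreated or treated with anti-PD-L1, an antibody that blocks the PD-1 ligand. Tumour-infiltrating cells were collected on day 8 after transfer. Each of the 4 groups (wild-type untreated, wild-type anti-PD-L1, knockout untreated, knockout anti-PD-L1) is 1 droplet single-cell library. No difference between groups can therefore be tested, and every interval given is a 95% interval for counting error only. The labels give neither the genotype of the host nor the number of animals behind a library, and host CD8 T cells cannot be told apart from transferred ones.

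After filtering, the libraries held from 1277 to 2297 cells, and any pair of libraries shared from 1 to 10 barcodes. Clustering without interferon genes gave 1025 to 1552 CD8 T cells, 176 to 405 macrophage-like cells and 50 to 929 melanoma-like cells per library, although the samples are labelled as CD8+ cells. Median UMIs (unique molecular identifiers, 1 per captured transcript) per CD8 T cell ranged from 3750 to 6842, and the wild-type untreated library was the shallowest. The wild-type untreated library stood apart in 2 further ways. Of its CD8 T cells, 57.3% lay in cluster 1 and 37.1% in cluster 5, while the other libraries lay mostly in clusters 2, 6, 7, 8 and 13. Its cell cycle markers summed to 1812 counts scaled to a common total per library (CPM) in CD8 T cells, against 934 to 1356 in the others. Tet2 itself, the targeted gene, was at 13.6 and 15.8 CPM in the wild-type untreated and anti-PD-L1 libraries and at 23.0 and 17.9 in the corresponding knockout libraries. It was not lower in the libraries labelled knockout, and since 3′ tags can come from outside a deleted part, these counts do not check the genotype. Genotypes below are those of the labels and, for every cell class, refer to the transferred T cells of the library.

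As background, type I interferons (alpha and beta) bind the receptor made of Ifnar1 and Ifnar2 and act through a complex that holds Stat2 and Irf9 and binds the interferon-stimulated response element (ISRE). Interferon gamma, made by activated T and NK cells, binds Ifngr1 and Ifngr2 and acts at the gamma-activated site (GAS), and through Irf1. The 2 sets of target genes overlap widely, so the list names give the better known inducer and not an exclusive one. In tumours, interferon gamma raises antigen presentation and guanylate-binding proteins in cancer cells and macrophages, and prolonged interferon signalling also accompanies T cell dysfunction.

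Some, though not all, promoters of the members hold letters that match an ISRE or a GAS. Of the 36 members, 28 matched the RefSeq promoter table (build GRCm38.p6, 250 bases before to 50 after each start). The letters GAAA, then any 2 bases, then GAAA, which stand for an ISRE, were searched on both strands and were found for 16 of the 28 genes (57.1%), against 3.99% of all genes in the table. The letters TTCNNNGAA, which stand for a GAS and read the same on both strands, were found for 8 of the 28 genes (28.6%), against 9.55% of all genes. An ISRE match was present for 12 of 22 type I-like and 4 of 6 gamma-like genes. A GAS match was present for 5 of 22 type I-like and 3 of 6 gamma-like genes. The windows below lie upstream of the start and run 5′ to 3′ in the gene's direction, with every match of either motif in capitals. Isg15 is shown for its row of 3 overlapping ISRE matches, Ifit1 for 2 separate ones, Bst2 for ISRE matches that overlap a GAS match, and Irf1 for a GAS match alone. Igtp holds both motifs side by side, and Gbp2 and Irgm1 show ISRE matches in the gamma-like list.
Isg15: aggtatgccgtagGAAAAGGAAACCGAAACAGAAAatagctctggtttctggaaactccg
Ifit1: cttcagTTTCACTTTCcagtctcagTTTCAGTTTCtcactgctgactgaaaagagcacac
Bst2: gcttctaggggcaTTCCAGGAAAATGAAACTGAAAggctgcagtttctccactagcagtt
Irf1: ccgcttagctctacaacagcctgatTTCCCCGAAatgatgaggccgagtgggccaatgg
Igtp: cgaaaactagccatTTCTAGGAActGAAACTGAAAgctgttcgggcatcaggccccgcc
Gbp2: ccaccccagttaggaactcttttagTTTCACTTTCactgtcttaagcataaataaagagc
Irgm1: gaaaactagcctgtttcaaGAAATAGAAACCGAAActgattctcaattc

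These windows are at chr4:156200850-156200909 (Isg15, minus strand), chr19:34640779-34640838 (Ifit1, plus strand), chr8:71537562-71537621 (Bst2, minus strand), chr11:53769899-53769957 (Irf1, plus strand), chr11:58199497-58199555 (Igtp, plus strand), chr3:142620579-142620638 (Gbp2, plus strand) and chr11:48871421-48871469 (Irgm1, minus strand). A match describes letters and shows neither binding nor use of the site in these cells. The members without an entry in the table are Gbp4, Rtp4, Mx1, Parp14, Zbp1, Ifi27l2a, Iigp1 and Usp18.

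In CD8 T cells the type I-like list was lowest in the wild-type untreated library. Its summed level was 1391 CPM in the wild-type untreated library, 2551 in the wild-type anti-PD-L1, 1994 in the knockout untreated and 2322 in the knockout anti-PD-L1 library. A single gene, Ifi27l2a, a member of the Ifi27 family on chromosome 12 (chr12:103433873-103443680), supplied 60.9% to 64.5% of these UMIs. Without it the other 27 genes summed to 544, 941, 708 and 896 CPM in the same order of libraries, so the order of the libraries was the same with and without Ifi27l2a.

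**Figure D1:**
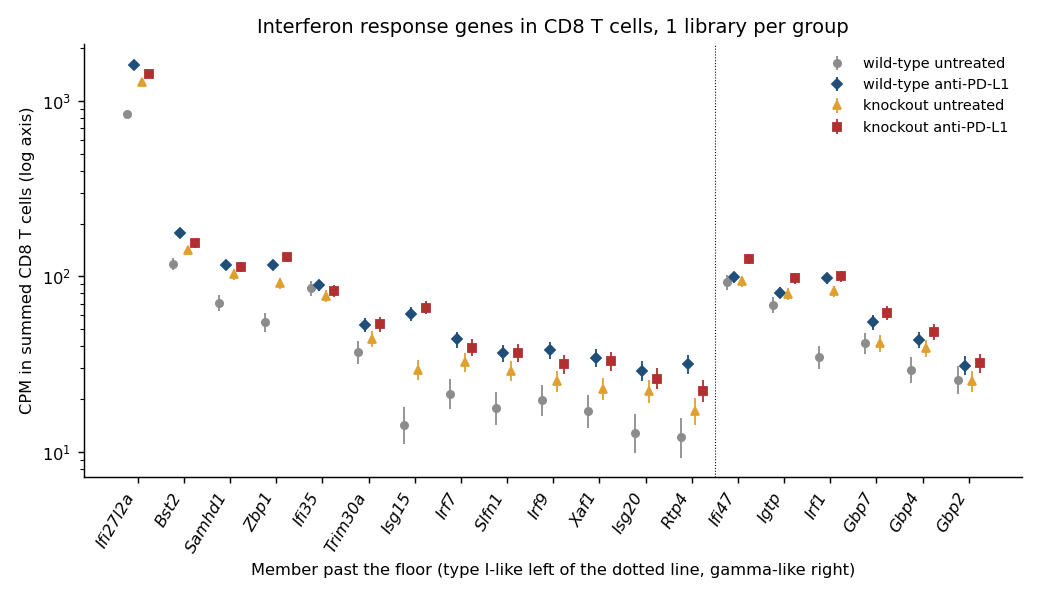
Level of each member past the floor of 20 CPM in summed CD8 T cells (log axis), with 1 point per library and bars for the counting interval. The wild-type untreated point is the lowest for 12 of the 13 type I-like genes shown, the exception being Ifi35.

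Of the 28 type I-like genes, 13 reached the floor, an average of 20 CPM across the CD8 T cell sums of the 4 libraries, and come first. Isg15, a ubiquitin-like protein that is joined to other proteins, was at 14.2 CPM in the wild-type untreated, 61.1 in the wild-type anti-PD-L1, 29.3 in the knockout untreated and 66.2 in the knockout anti-PD-L1 library. Both treated libraries were thus above both untreated ones. Ifi27l2a was at 847 CPM in the wild-type untreated, 1609.9 in the wild-type anti-PD-L1, 1286 in the knockout untreated and 1426 in the knockout anti-PD-L1 library. Here only the wild-type untreated library stood low.

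Among sensors and effectors that act on nucleic acids, Zbp1, which senses Z-form nucleic acids, was at 54.7 CPM in the wild-type untreated library, 117 in the wild-type anti-PD-L1, 91.4 in the knockout untreated and 129 in the knockout anti-PD-L1. Samhd1, which degrades nucleotides needed by viruses, was at 71.0 CPM in the wild-type untreated library and at 103 to 117 in the other 3. Isg20, an exonuclease, was at 12.8 CPM in the wild-type untreated library and at 22.2 to 28.8 in the others. For these 3 genes the wild-type untreated value was the lowest.

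The transcription factors of the pathway had the same low library. Irf7, which drives further interferon production, was at 21.4 CPM in the wild-type untreated, 43.7 in the wild-type anti-PD-L1, 32.4 in the knockout untreated and 39.2 in the knockout anti-PD-L1 library. Irf9, the DNA-binding partner of Stat2, was at 19.7 CPM in the wild-type untreated, 38.0 in the wild-type anti-PD-L1, 25.3 in the knockout untreated and 31.6 in the knockout anti-PD-L1 library. For both, the wild-type anti-PD-L1 library was the highest.

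Other effectors shared the low wild-type untreated library, except Ifi35. Bst2, or tetherin, which holds budding virus at the cell surface, was at 118 CPM in the wild-type untreated, 178 in the wild-type anti-PD-L1, 141 in the knockout untreated and 155 in the knockout anti-PD-L1 library. Slfn1, a growth-restraining Schlafen protein of T cells, was at 17.7, 36.5, 29.0 and 36.7 CPM in that order. Xaf1, which binds the apoptosis inhibitor Xiap, was at 17.1, 34.2, 22.9 and 32.7 CPM in that order. Rtp4 differed from the rest because its 2 anti-PD-L1 values lay further apart, with 12.1 CPM in the wild-type untreated, 31.6 in the wild-type anti-PD-L1, 17.0 in the knockout untreated and 22.3 in the knockout anti-PD-L1 library. Trim30a, a ubiquitin ligase, ranged only from 36.8 to 53.3 CPM. Ifi35 ranged from 77.1 to 89.3 CPM and was the flattest of the 13.

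The other 15 type I-like genes lay under the floor in CD8 T cells: Ifit1, Ifit2, Ifit3, Ifit1bl1, Mx1, Oasl1, Oasl2, Oas3, Rsad2, Usp18, Stat2, Ifih1, Parp14, Slfn5 and Slfn8. Their levels ran from 0.375 CPM for Oasl2 in the knockout untreated library, which is 3 UMIs, to 22.2 CPM for Parp14 in the knockout anti-PD-L1 library. Ifit1, an RNA-binding protein that blocks translation of foreign RNA, was at 2.67 and 2.75 CPM in the untreated wild-type and knockout libraries and at 11.0 and 10.3 in the treated ones. Ifit3 was at 2.06 CPM (10 UMIs) in the wild-type untreated library and at 4.13 to 8.52 in the others. Ifih1, the sensor MDA5, ran the other way, with 8.84 CPM in the wild-type untreated library and 3.00 to 4.38 in the others. Counts of Ifit3, Slfn8, Trim30a and the Gbp genes are uncertain, because close copies of these genes could share their reads and the handling of such reads is not given in the sources used here.

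Set against untreated wild-type cells, untreated knockout CD8 T cells had a type I-like sum that was 0.52 higher on the log2 scale (0.48 to 0.56). At least 1.5-fold higher were 6 of the 13 genes past the floor (Isg15, Isg20, Irf7, Zbp1, Ifi27l2a and Slfn1) and none was 1.5-fold lower. Over all 4627 genes past the floor, 7.87% were 1.5-fold higher and 6.89% lower in this comparison. The median log2 difference was 0.53 over the 13 genes and -0.10 over all genes. Isg15 was the most different of the 6, at 1.05 (0.65 to 1.45).

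Under anti-PD-L1 the same genotype comparison gave a type I-like sum 0.14 lower in the knockout on the log2 scale (-0.16 to -0.11). None of the 13 genes was 1.5-fold higher or lower, where 1.08% of all genes were higher and 1.45% lower. Rtp4 came nearest, at -0.51 (-0.79 to -0.23). The median was -0.11 over the 13 genes and 0.09 over all genes.

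The largest shift of the type I-like list came with anti-PD-L1 in the wild-type libraries. The sum was 0.87 higher on the log2 scale (0.84 to 0.91), and 11 of the 13 genes were at least 1.5-fold higher, the exceptions being Ifi35 and Trim30a. None was lower. Of all genes, 11.2% were higher and 20.4% lower, and the median was 1.00 over the 13 genes against -0.18 over all. Isg15 was 2.11 higher (1.74 to 2.49), Rtp4 1.38 (0.97 to 1.82), Isg20 1.18 (0.77 to 1.60) and Zbp1 1.09 (0.90 to 1.29). In the knockout libraries the sum was 0.22 higher with anti-PD-L1 (0.19 to 0.25), and Isg15 alone passed 1.5-fold, at 1.18 (0.95 to 1.41). In that comparison 2.92% of all genes were higher and 1.1% lower.

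**Figure D2:**
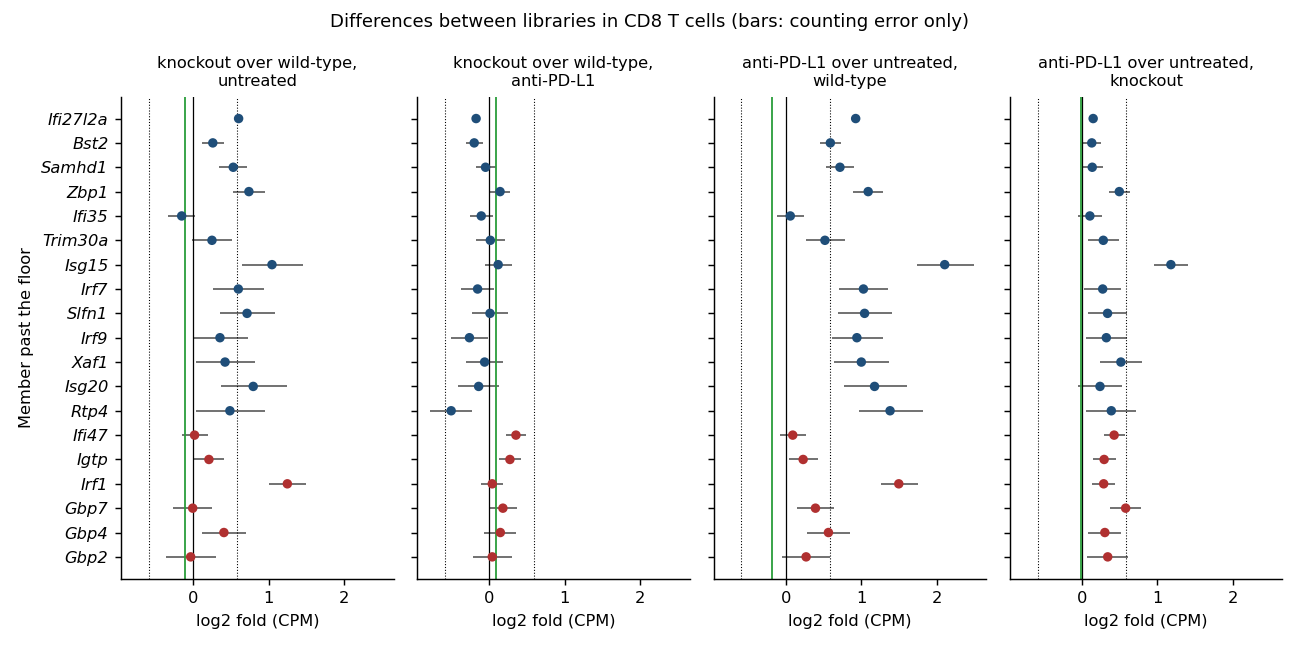
Log2 difference in CPM of each member past the floor in CD8 T cells for the 4 comparisons, with type I-like genes in blue and gamma-like genes in red. Dotted lines mark 1.5-fold, the green line the median of all genes and bars the counting interval; all type I-like genes but Ifi35 lie above 0 in both comparisons with the wild-type untreated library.

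Both larger differences rest on the wild-type untreated library, which shares no CD8 cluster of at least 50 cells with any library it is compared with. When only cells without a UMI of the 10 cell cycle markers were kept, an alternative chosen after the data were seen, 109 cells of that library remained. The knockout over wild-type difference of untreated cells was then 0.17 (0.05 to 0.28) and the anti-PD-L1 difference in wild-type 0.28 (0.17 to 0.39). In the same cells the type I-like difference with anti-PD-L1 was 0.028 in knockout libraries, and without the cycling clusters the genotype difference of treated libraries turned from -0.14 to 0.015. Cell cycle state, cluster make-up and treatment or genotype cannot be told apart in these comparisons. Melanoma markers moved with the library as well: their 8 genes summed to 98.7 CPM in CD8 T cells of the wild-type untreated library and to 15.6 to 28.3 in the others. Monocyte markers had the same order of libraries as the type I-like sum: their 5 genes summed to 1060 CPM in the wild-type untreated, 3004 in the wild-type anti-PD-L1, 1753 in the knockout untreated and 2335 in the knockout anti-PD-L1 library. Ly6c2, which activated CD8 T cells also express, supplied 48.3% to 57.7% of that sum, and 0 to 2 of the 5 genes were at 0. The part of these markers in the result was not tested beyond leaving out CD8 T cells with more than 1 macrophage or melanoma marker UMI, which gave 0.47 and 0.85.

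Gamma-like genes in CD8 T cells were higher in the treated libraries of both genotypes, by modest amounts. Their summed level was 320 CPM in the wild-type untreated, 438 in the wild-type anti-PD-L1, 383 in the knockout untreated and 509 in the knockout anti-PD-L1 library. The log2 difference with anti-PD-L1 was 0.46 (0.37 to 0.54) in wild-type and 0.41 (0.34 to 0.48) in knockout libraries. The knockout over wild-type difference was 0.26 (0.17 to 0.35) without and 0.21 (0.15 to 0.28) with anti-PD-L1. In cells without a cell cycle UMI the 4 differences were 0.29 to 0.45.

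Irf1 is a transcription factor induced within hours by interferon gamma and also by T cell receptor signals (gene at chr11:53770014-53778374). Of the 6 gamma-like genes past the floor it differed most between libraries. Like Ifi27l2a and Samhd1, it stood low in the wild-type untreated library. It was at 34.6 CPM in the wild-type untreated, 97.6 in the wild-type anti-PD-L1, 82.1 in the knockout untreated and 100.2 in the knockout anti-PD-L1 library. It was the only one of the 6 gamma-like genes past the floor to differ by 1.5-fold in CD8 T cells, 1.249 higher in the untreated knockout (1.002 to 1.502) and 1.498 higher with anti-PD-L1 in wild-type (1.256 to 1.746). None of the 6 passed 1.5-fold in the other 2 comparisons.

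Ifi47 and Igtp, the immunity-related GTPases past the floor, were flatter. This family attacks vacuoles of intracellular parasites. Ifi47 was at 92.6 CPM in the wild-type untreated, 98.8 in the wild-type anti-PD-L1, 93.9 in the knockout untreated and 126 in the knockout anti-PD-L1 library. Igtp was at 68.9, 80.9, 79.7 and 97.8 CPM in that order. In both, the knockout anti-PD-L1 library was the highest and the wild-type untreated library the lowest.

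The guanylate-binding proteins, larger GTPases with related functions, followed. Gbp7 was at 41.5 CPM in the wild-type untreated, 54.6 in the wild-type anti-PD-L1, 41.4 in the knockout untreated and 61.9 in the knockout anti-PD-L1 library. Gbp4 was at 29.4, 43.6, 39.0 and 48.2 CPM in that order, and Gbp2 at 25.7, 31.0, 25.2 and 31.9. The treated libraries were above the untreated ones for each of the 3. The immunity-related GTPases under the floor were less flat. Irgm1 was at 14.6, 24.8, 11.6 and 25.4 CPM in that order, and Iigp1 at 12.3, 6.94, 9.64 and 17.1.

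Across the 6 gamma-like genes past the floor, the median log2 difference was 0.12 for the knockout without and 0.16 with anti-PD-L1, and 0.33 for anti-PD-L1 in wild-type and 0.32 in knockout libraries. The medians of all genes for these comparisons were -0.10, 0.09, -0.18 and -0.01.

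Within CD8 T cells the type I-like level differed between clusters more than between the libraries sharing them. Cluster 13, with Cxcr6 and the inhibitory receptors Pdcd1 and Ctla4 among its leading genes, held 4055 CPM in the wild-type anti-PD-L1, 4072 in the knockout untreated and 4221 in the knockout anti-PD-L1 library. Cluster 7, led by Nrn1, Dapl1 and Tnfrsf4, held 1292, 1236 and 1191 CPM in those libraries. Cluster 13 thus lay above cluster 7 in each of the 3 libraries. The 2 clusters also differed in cell cycle markers, at 239 to 267 CPM in cluster 13 and 1628 to 1864 in cluster 7. Clusters 1, 5, 6 and 7 were those taken as cycling. The part of the cell cycle in this contrast was not tested. Clusters were formed without the members, but genes that vary with them may have entered, so no test is given.

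Cluster 8, led by Xcl1, Ifng and Cxcr6, held 2030 CPM in the wild-type anti-PD-L1 library but 1278 in the knockout untreated and 1388 in the knockout anti-PD-L1 library. Cluster 6, whose cell cycle markers summed to 2425 to 2541 CPM, likewise held more in the wild-type anti-PD-L1 library, at 2858 CPM, than in the knockout untreated library, at 2175, and the knockout anti-PD-L1 library, at 2133. Cluster 2, led by Izumo1r and Ccr7, showed the other order, with 2388, 2995 and 2999 CPM. The wild-type untreated library held 1137 CPM in cluster 1 and 1741 in cluster 5. Erythroid markers stood at over 1000 CPM in clusters 2, 8 and 13 of the knockout untreated library and in cluster 8 of the knockout anti-PD-L1 library, and at 12.8 to 65.3 in the other clusters and libraries with at least 50 cells. Over all CD8 T cells the wild-type anti-PD-L1 library had the highest erythroid sum, 661 CPM against 141 to 485, with 5092 of its 5432 UMIs in 1 cell. In the knockout anti-PD-L1 library 1 cell held 2092 of 2228.

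With each shared cluster given equal weight, an alternative chosen after the data were seen, the type I-like difference of the treated libraries between genotypes was -0.08, and that of anti-PD-L1 in the knockout was 0.02. For the gamma-like sum the same weighting gave 0.24 and 0.30. The gamma-like level was highest in cluster 13 of the knockout anti-PD-L1 library, at 714 CPM, against 498 and 494 CPM in that cluster of the wild-type anti-PD-L1 and knockout untreated libraries. In cluster 8 the order was different, at 552 CPM in the wild-type anti-PD-L1, 405 in the knockout untreated and 494 in the knockout anti-PD-L1 library.

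**Figure D3:**
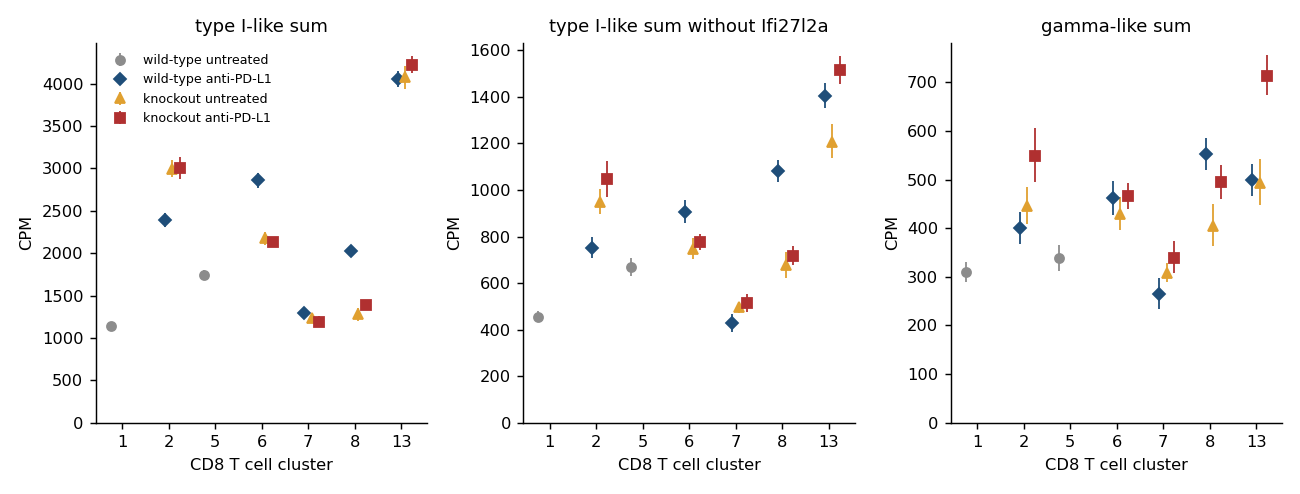
Summed CPM of the type I-like list, of that list without Ifi27l2a and of the gamma-like list by CD8 T cell cluster, for each library with at least 50 cells in the cluster, with counting intervals. Cluster 13 lies highest for the type I-like list in all 3 libraries that hold it, and clusters 1 and 5 hold the wild-type untreated library alone.

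Per cell, the type I-like list was spread unevenly. After thinning each cell to 2600 UMIs, which left out 219 of 1125 wild-type untreated and 20 to 151 cells of the other libraries, 86.3% to 93.1% of CD8 T cells held at least 1 UMI of the list (96.2% to 98.7% before thinning). At least 10 UMIs were held by 7.84% of wild-type untreated cells (6.17% to 9.78%), 27.0% of wild-type anti-PD-L1 cells (24.6% to 29.6%), 19.0% of knockout untreated cells (17.0% to 21.1%) and 26.8% of knockout anti-PD-L1 cells (24.05% to 29.6%), with exact binomial intervals. The 5% of cells with the most type I-like UMIs held 21.5% to 22.5% of them in each library. For the gamma-like list the same share was 20.3% to 23.5%. Ifi27l2a is part of the type I-like counts, and the per-cell result without it is not given.

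Gamma-like UMIs were found in 52.4% of thinned wild-type untreated, 64.1% of wild-type anti-PD-L1, 60.4% of knockout untreated and 67.2% of knockout anti-PD-L1 CD8 T cells. Irf1 alone was found in 9.05%, 22.6%, 18.6% and 24.1% of cells in that order, and Isg15 in 3.64%, 12.2%, 6.995% and 13.8%. Before thinning, with median depths of 3750 to 6842 UMIs, the Irf1 shares were 12.8%, 39.9%, 31.6% and 48.5% and the Isg15 shares 5.42%, 20.4%, 10.5% and 24.9%. Slfn1 was held by 5.41% to 10.8% of thinned CD8 T cells. It was found in 0 of 918 thinned melanoma-like cells of the wild-type untreated library, with an exact binomial upper bound of 0.401%. Ifi27l2a was found in 62.8% to 72.7% of thinned CD8 T cells and in 3.59% of those 918 cells. Before thinning, 0.323% of melanoma-like cells of that library held Slfn1. Their median depth was 10199 UMIs, against 3750 in CD8 T cells of that library. With depths this unlike, the shares cannot give the level of free RNA in CD8 T cells.

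**Figure D4:**
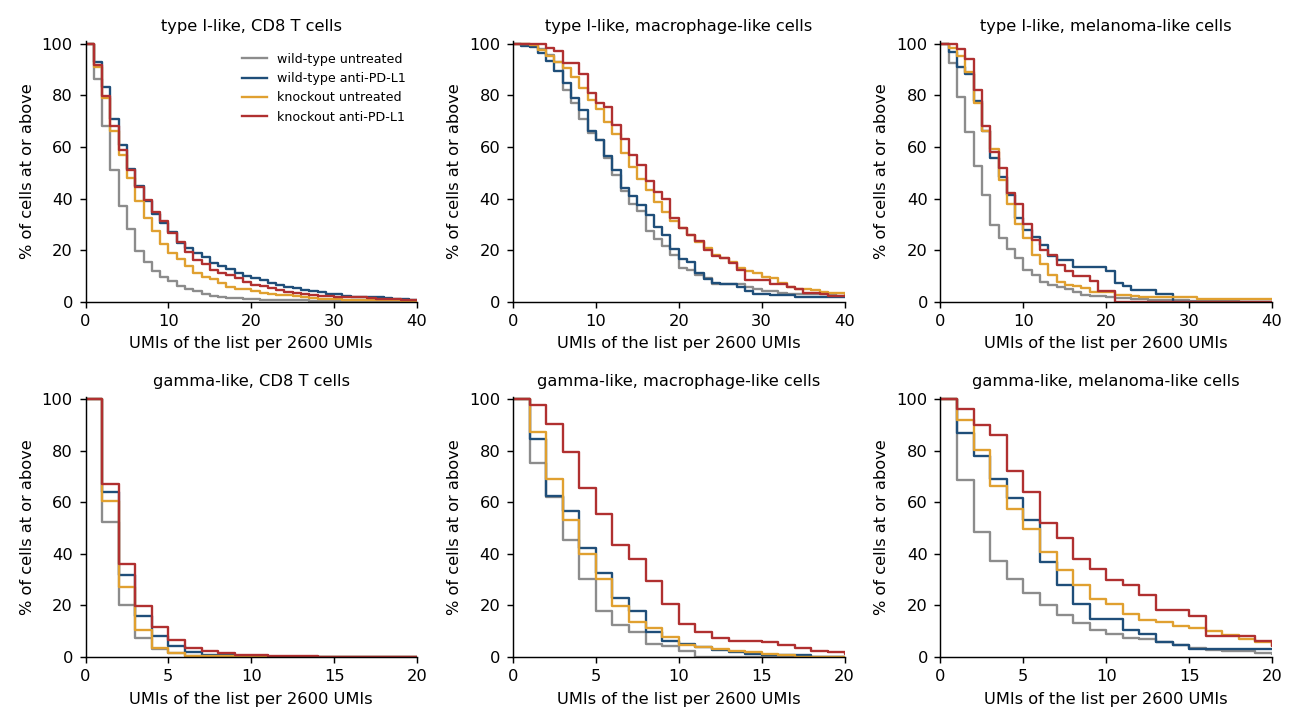
Percent of cells (vertical axis) with at least the number of list UMIs on the horizontal axis, after thinning to 2600 UMIs, for the 2 lists and 3 cell classes. The wild-type untreated curve is the lowest for the type I-like list in CD8 T cells, and at 10 UMIs the knockout anti-PD-L1 curve lies above the others for the gamma-like list in macrophage-like cells.

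Macrophage markers were read in the CD8 T cell sums beside the members. The 11 macrophage markers stood in CD8 T cells at 0.116% to 0.155% of their level in macrophage-like cells. The type I-like sum stood at 27.6% to 52.8% of its macrophage level and the gamma-like sum at 23.6% to 31.8%. The lowest single members were Oasl2, at 0.341% to 1.22% of its macrophage level, and Rsad2, at 1.51% to 1.94%. Each member was thus above the macrophage marker sum on this scale, although Cd68, at 0.488% to 1.61%, overlapped the range of Oasl2. Of the macrophage markers, at most 3 of 11 were at 0 in CD8 T cells of a library.

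**Figure D5:**
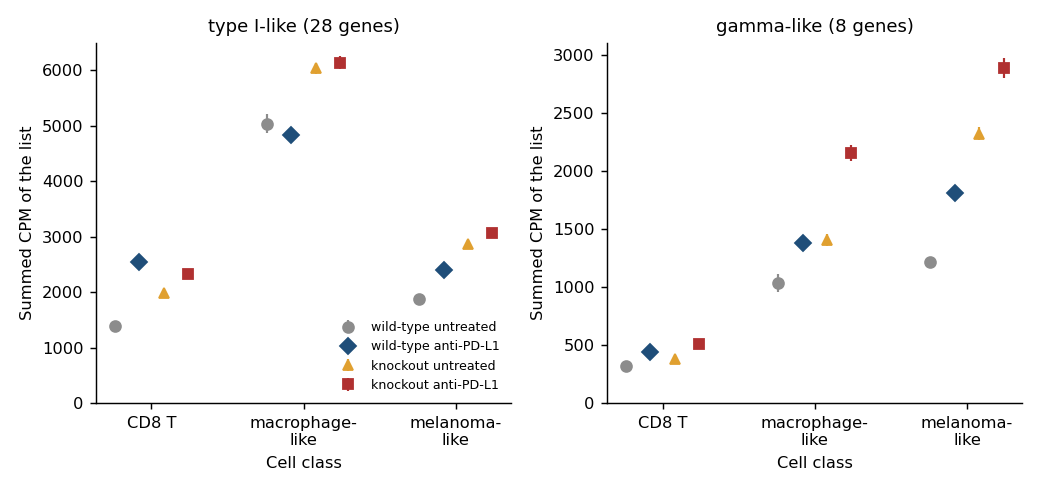
Summed CPM of the type I-like list (left) and the gamma-like list (right) in CD8 T cells, macrophage-like cells and melanoma-like cells, with 1 point per library and counting intervals. The type I-like list is highest in macrophage-like cells in every library, and the gamma-like list is highest in melanoma-like cells.

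Macrophage-like cells, marked by C1qa, C1qb and Ms4a7, carried the highest type I-like level of the 3 classes in every library. The sum was 5041 CPM in the wild-type untreated, 4836 in the wild-type anti-PD-L1, 6033 in the knockout untreated and 6135 in the knockout anti-PD-L1 library. Both libraries with knockout T cells were thus above both with wild-type T cells, by 0.26 on the log2 scale without (0.20 to 0.31) and 0.34 with anti-PD-L1 (0.30 to 0.39). Without anti-PD-L1, 8 of the 26 genes past the floor were 1.5-fold higher and none lower, against 12.8% of all genes higher and 12.2% lower. With it, 6 were higher and none lower, against 6.87% and 5.03%. Without Ifi27l2a the sum was 3206 CPM in the wild-type untreated, 3657 in the wild-type anti-PD-L1, 4454 in the knockout untreated and 4835 in the knockout anti-PD-L1 library. The knockout differences were then 0.47 (0.41 to 0.54) and 0.40 (0.35 to 0.46), and anti-PD-L1 in wild-type turned from -0.06 to 0.19 (0.12 to 0.26). Other markers also set the wild-type untreated macrophage-like cells apart: monocyte markers at 889 CPM against 1578 to 1964, cell cycle markers at 709 against 244 to 325 and melanoma markers at 266 against 55.9 to 94.3. Their part in the result was not tested.

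In macrophage-like cells Irf7 separated the libraries with knockout T cells from those with wild-type T cells. Irf7 was at 419 CPM in the wild-type untreated, 479 in the wild-type anti-PD-L1, 908 in the knockout untreated and 794 in the knockout anti-PD-L1 library. It was 1.11 higher in the knockout without (0.933 to 1.2999) and 0.73 with anti-PD-L1 (0.59 to 0.87). Both knockout libraries lay above both wild-type ones. Oasl1, an inhibitor of Irf7 translation, was at 56.7, 41.3, 86.3 and 83.0 CPM in the same order of libraries. Oasl1 and Slfn8 were also past 1.5-fold in both genotype comparisons, Slfn8 at 16.4, 28.1, 25.3 and 43.8 CPM, with intervals from -0.33 to 1.71 without and from 0.04 to 1.27 with anti-PD-L1. Samhd1 and Rsad2, or viperin, were low in the wild-type untreated library alone, Samhd1 at 281 CPM against 487 to 600 and Rsad2 at 95.5 CPM against 172 to 227.

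Ifi27l2a did not follow in macrophage-like cells. It was at 1835 CPM in the wild-type untreated, 1179 in the wild-type anti-PD-L1, 1579 in the knockout untreated and 1300.0 in the knockout anti-PD-L1 library. Anti-PD-L1 over untreated was -0.64 in wild-type (-0.75 to -0.53) and -0.28 in knockout libraries (-0.36 to -0.20), where CD8 T cells had 0.93 and 0.15. Without the cell richest in Ifi27l2a of each library, which held 121 of 1230 UMIs in the wild-type untreated one, the wild-type value was -0.56 and no longer past 1.5-fold. Ifi27l2a and Ifi35 were the 2 type I-like genes at least 1.5-fold lower with anti-PD-L1 in wild-type, where 6 of 26 were higher. Of all genes in that comparison, 14.1% were higher and 15.6% lower. In knockout libraries 2 of 26, Ifit1 and Slfn8, were higher with anti-PD-L1, against 5.8% of all genes higher and 3.31% lower.

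Gamma-like genes in macrophage-like cells were highest in the knockout anti-PD-L1 library. The sum was 1037 CPM in the wild-type untreated, 1377 in the wild-type anti-PD-L1, 1406 in the knockout untreated and 2155 in the knockout anti-PD-L1 library. The knockout was 0.65 higher with anti-PD-L1 (0.56 to 0.73), with 5 of 8 genes past 1.5-fold (Irf1, Igtp, Iigp1, Gbp4 and Irgm1), and 0.44 higher without (0.32 to 0.56), with 2 of 8 (Irf1 and Gbp2). Anti-PD-L1 gave 0.41 (0.28 to 0.54) in wild-type, with Irf1 and Irgm1 past 1.5-fold, and 0.62 (0.55 to 0.69) in knockout libraries, with Irf1, Iigp1 and Irgm1. No gamma-like gene was 1.5-fold lower in any of the 4. Of all genes, 6.87% were higher in the knockout with and 12.8% without anti-PD-L1, and 14.1% were higher with anti-PD-L1 in wild-type and 5.8% in knockout libraries.

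Iigp1, a GTPase that loads onto parasite vacuoles, showed the single high library most clearly in macrophage-like cells. It was at 122 CPM in the wild-type untreated, 142 in the wild-type anti-PD-L1, 147 in the knockout untreated and 295 in the knockout anti-PD-L1 library. Irf1 was at 71.6, 158, 121 and 256 CPM in that order, so that both treated libraries were above both untreated ones. Gbp2 supplied 27.0% to 31.7% of the gamma-like sum in this class and was at 284, 416, 446 and 582 CPM. In bulk sums of a class, fewer responding cells and less RNA per cell cannot be told apart. After thinning, the share of macrophage-like cells with a gamma-like UMI was 75.2% in the wild-type untreated, 84.7% in the wild-type anti-PD-L1, 87.4% in the knockout untreated and 97.8% in the knockout anti-PD-L1 library. Thinning left out 58 of 203 macrophage-like cells of the wild-type untreated library and 13, 23 and 2 cells of the others in that order. Median UMIs per macrophage-like cell before thinning were 2998, 5877, 4818 and 9110 in the same order of libraries.

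Melanoma-like cells, marked by Mlana, Pmel, Tyrp1 and Dct, held the highest gamma-like level of the 3 classes in every library. The sum was 1214 CPM in the wild-type untreated, 1807 in the wild-type anti-PD-L1, 2324 in the knockout untreated and 2887 in the knockout anti-PD-L1 library. Both libraries with knockout T cells were above both with wild-type T cells. The knockout difference was 0.94 without (0.89 to 0.98) and 0.68 with anti-PD-L1 (0.61 to 0.74). Past 1.5-fold were 7 of 8 genes without anti-PD-L1, all but Irgm1, where 6.36% of all genes were higher and 4.25% lower. Melanoma-like cells had median UMIs of 10199 in the wild-type untreated, 25574 in the wild-type anti-PD-L1, 13918 in the knockout untreated and 31762.5 in the knockout anti-PD-L1 library. Median mitochondrial UMIs per cell were 3.66% and 3.84% in the wild-type and 4.86% and 5.08% in the knockout libraries, untreated first. Cell cycle markers summed to 1506 and 1579 CPM against 1085 and 800 in the same order. Their part in the result was not tested. With anti-PD-L1 there were 4 of 8 (Igtp, Iigp1, Gbp7 and Irgm1), where 6.7% of all genes were higher and 8.75% lower.

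All gamma-like genes but Irf1 encode GTPases, and values of Igtp, Iigp1 and Gbp4 in melanoma-like cells follow. Igtp was at 235 CPM in the wild-type untreated, 308 in the wild-type anti-PD-L1, 542 in the knockout untreated and 581 in the knockout anti-PD-L1 library. Iigp1 was at 260, 354, 519 and 667 CPM in that order. Both genes had their 2 knockout values above their 2 wild-type values, with no overlap of counting intervals between genotypes. Gbp4 was at 95.3, 115, 211 and 151 CPM, and was the 1 gamma-like gene lower with anti-PD-L1 in the knockout, at -0.49 (-0.71 to -0.27).

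Irgm1, a regulator of these GTPases, was higher in both treated than in both untreated libraries of melanoma-like cells. It was at 187 CPM in the wild-type untreated, 374 in the wild-type anti-PD-L1, 274 in the knockout untreated and 606 in the knockout anti-PD-L1 library. Irf1 was at 49.3, 82.9, 74.3 and 120 CPM in that order, and its wild-type anti-PD-L1 and knockout untreated counting intervals overlapped. With anti-PD-L1, 3 of 8 gamma-like genes were past 1.5-fold in wild-type (Irf1, Gbp2 and Irgm1) and 2 of 8 in knockout libraries (Irf1 and Irgm1). Of all genes, 3.51% were higher and 2.76% lower in wild-type, and 2.74% and 4.54% in knockout.

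The type I-like sum in melanoma-like cells had the same order of libraries, at 1880 CPM in the wild-type untreated, 2409 in the wild-type anti-PD-L1, 2878 in the knockout untreated and 3061 in the knockout anti-PD-L1 library. Without anti-PD-L1, 10 of the 19 genes past the floor were 1.5-fold higher in the knockout and none lower, against 6.36% of all genes higher. With anti-PD-L1, 3 of 19 were (Isg15, Isg20 and Parp14), against 6.7%. Single cells weighed on some calls: without the richest cell of each library, the untreated knockout difference went from 1.07 to 0.55 for Rsad2, from 0.74 to 0.28 for Ifit2, from 0.61 to 0.55 for Oasl2 and from 0.59 to 0.49 for Irf1. For Zbp1 and Gbp2 the anti-PD-L1 difference in wild-type went from 0.62 to 0.54 and from 0.61 to 0.40. All 6 were then under 1.5-fold. Bst2 was the largest contributor, at 629 CPM in the wild-type untreated, 920 in the wild-type anti-PD-L1, 994 in the knockout untreated and 1149 in the knockout anti-PD-L1 library. With anti-PD-L1, 2 of 19 genes were higher in wild-type (Ifit2 and Zbp1), against 3.51% of all genes, and none in knockout libraries, against 2.74%.

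Several members were nearly silent in melanoma-like cells. Slfn1 had 0 to 3 UMIs in any library, Slfn5 0 to 2 and Ifit1bl1 0 to 2, so no fold is given for them. Ifi27l2a, the leading gene of T cells, was at 8.22 to 27.1 CPM. The melanoma-like class rests on few cells outside the wild-type untreated library (69 in the wild-type anti-PD-L1, 190 in the knockout untreated and 50 in the knockout anti-PD-L1 library), and its clusters 0, 3 and 9 were held in different shares. Within cluster 0 the gamma-like sum was 1239 CPM in the wild-type untreated and 2669 in the knockout untreated library, and within cluster 3 it was 1171 and 2022. Macrophage markers summed to 739 to 1098 CPM in melanoma-like cells, lowest in the wild-type anti-PD-L1 library, and their part in the type I-like sum was not tested.

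The members differed in which class held most of them. Of the 28 type I-like genes, 18 were highest in macrophage-like cells in all 4 libraries, 4 (Ifit1, Ifit3, Usp18 and Xaf1) were highest in melanoma-like cells in all 4, and 6 differed between libraries. Of the 8 gamma-like genes, Igtp, Iigp1 and Irgm1 were highest in melanoma-like cells and Irf1 and Gbp2 in macrophage-like cells in all 4 libraries. Isg20 was the 1 type I-like gene that stood higher in CD8 T cells than in macrophage-like cells in 3 libraries and past the floor in the former, at 98.4% to 171% of a macrophage level resting on 5 to 48 UMIs. Irf9 was close between the classes, at 77.9% to 112%.

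Directions were compared over both genotype comparisons in the 3 classes for the 16 members past the floor in every class. Above 0 in all 6 differences were 7 of the 16 (Isg15, Zbp1, Trim30a, Irf1, Ifi47, Igtp and Gbp4), where 4.21% of the 3209 genes past the floor in every class were. Over the 6 anti-PD-L1 differences 5 of 16 were above 0 throughout, where 5.89% of all genes were. The 3 classes of a library were captured together, so these 6 differences are not independent. Irgm1, under the floor in CD8 T cells and named after its values were seen, was at least 1.5-fold higher with anti-PD-L1 in all 6. Of the 3209 genes, 9 were, namely Fosb and ribosomal genes or their copies, and none of the 16 members was. Ifit1bl1 is left out here because it had 0 to 2 UMIs per library in melanoma-like cells.

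Genes that make, receive and relay interferon were read from fixed lists. Of 20 interferon genes, Ifng alone had UMIs in CD8 T cells, at 190 CPM in the wild-type untreated, 296 in the wild-type anti-PD-L1, 208 in the knockout untreated and 426 in the knockout anti-PD-L1 library. It was 0.64 higher with anti-PD-L1 in wild-type (0.53 to 0.75) and 1.04 in knockout libraries (0.95 to 1.12). A single cell held 232 of 924 Ifng UMIs in the wild-type untreated and 235 of 2435 in the wild-type anti-PD-L1 library. In the knockout untreated library 1 cell held 119 of 1659, and in the knockout anti-PD-L1 library 466 of 3418. The intervals do not cover this, and the Ifng differences without these cells are not given. Ifng was concentrated in cluster 8, at 911 to 1341 CPM. The order of the libraries by T cell Ifng was that of the gamma-like sum in CD8 T cells. In macrophage-like and melanoma-like cells the gamma-like sum of the knockout untreated library was instead above that of the wild-type anti-PD-L1 library. A link between Ifng and these sums was not tested.

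Of 16 receptor and signalling genes, 12 were past the floor in CD8 T cells. In untreated cells 4 were 1.5-fold higher in the knockout, and with anti-PD-L1 4 were higher in wild-type and 1 in knockout libraries, with none lower in any comparison. The shares of all genes higher were 7.87%, 11.2% and 2.92%. Ifnar1, a chain of the type I receptor, was at 36.8 CPM in the wild-type untreated, 125 in the wild-type anti-PD-L1, 94.1 in the knockout untreated and 85.7 in the knockout anti-PD-L1 library. Ifngr1, the ligand-binding chain of the gamma receptor, was at 144, 353, 255 and 349 CPM in that order. Both chains were thus low in the wild-type untreated library, as the type I-like list was.

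Ifngr2, the other gamma receptor chain, was at 0.375 to 0.823 CPM in CD8 T cells, on 3 to 6 UMIs, and at 53.7 to 106 CPM in macrophage-like and 70.6 to 84.1 CPM in melanoma-like cells. Ifnar2 was at 16.04 to 25.4 CPM in CD8 T cells. Among the kinases, Jak1 was at 105 to 144 CPM, Jak2 at 8.84 to 13.7 and Tyk2 at 6.26 to 11.0. Socs1, a feedback inhibitor of these kinases, was at 14.6 CPM in the wild-type untreated, 59.3 in the wild-type anti-PD-L1, 28.0 in the knockout untreated and 46.2 in the knockout anti-PD-L1 library. A further list held 11 nucleic acid sensing genes, 2 of them past the floor in CD8 T cells. In the untreated knockout 1 was 1.5-fold lower, as was 1 with anti-PD-L1 in wild-type, against 6.89% and 20.4% of all genes. None was higher in any comparison. The list sum differed by -0.32 (-0.46 to -0.17) and -0.39 (-0.54 to -0.25). It differed by 0.16 between treated genotypes and 0.09 with anti-PD-L1 in knockout.

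Other interferon-induced genes outside the 36 came from another fixed list. Of 49 such genes measured, 13 were past the floor in CD8 T cells. In untreated cells 2 were 1.5-fold higher and 1 lower in the knockout, and with anti-PD-L1 none differed between genotypes. With anti-PD-L1, 1 was higher in wild-type and 1 in knockout libraries, and none lower. The shares of all genes were 7.87% higher and 6.89% lower in the untreated knockout, and 11.2% and 2.92% higher with anti-PD-L1. The sum of the 49 genes in CD8 T cells was 0.06 higher in the untreated knockout (0.0025 to 0.11), against 0.52 for the type I-like sum. With anti-PD-L1 in wild-type it was 0.31 higher (0.25 to 0.36), against 0.87. Medians past the floor were -0.08 and 0.23, against 0.53 and 1.00 for the type I-like list. Between treated genotypes the sum of the 49 differed by 0.005, and with anti-PD-L1 in knockout by 0.26. In melanoma-like cells 24 of the 49 were past the floor, and 10 were higher in the untreated knockout and none lower, against 6.36% of all genes higher. Cxcl9, a chemokine that draws T cells, in macrophage-like cells was at 513 CPM for the wild-type untreated library, 644 for the wild-type anti-PD-L1, 957 for the knockout untreated and 1073 for the knockout anti-PD-L1 library. In melanoma-like cells Cxcl9 was at 24.01, 97.0, 154 and 63.9 CPM in that order, but 114 of 186 UMIs of the wild-type anti-PD-L1 library lay in 1 cell. Without the richest cell of each library the values were 22.5, 38.1, 116 and 37.6 CPM.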

How the data were processed

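The authors deposited 1 table of raw UMI counts per library, with barcodes as rows and genes as columns, per the file headers. The submitters' processing notes name the build mm10, while the program that made these counts is not given in the sources used here. Each table lists barcodes in 2 forms, and the listing with 2 hyphens was used, with 11835413 to 16208647 UMIs per library. The 8 RNA and 8 ATAC samples were not analysed here.

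Cells with at least 500 genes and at most 10% mitochondrial UMIs were kept. They were clustered with scanpy 1.11.5 (2000 variable genes without interferon genes, 30 components, 15 neighbours, Leiden resolution 1.0) into 14 clusters, named by marker lists. No doublet caller was run. TMM factors of edgeR 4.0.16 were an alternative to library totals, and cells were thinned to 2600 UMIs for shares of cells. UMIs were summed per class and library and scaled to CPM. Differences are log2 ratios of CPM with exact conditional binomial intervals, levels have exact Poisson intervals, and no test was possible with 1 library per group. The floor was a mean of 20 CPM over the 4 libraries, and the fold was 1.5. The ratio script was tested on simulated data. Every member past the floor in CD8 T cells is named with its values, and the other members with their range. The members and lists were chosen with earlier results of these data known.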

Additional observations from a re-analysis of the deposited data

Results flagged for a closer look

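In each case given here the same contrast had opposite signs in 2 settings, with neither counting interval reaching 0, and the difference between the settings was not tested. In CD8 T cells, knockout over wild-type without and with anti-PD-L1 was 0.52 and -0.14 on the log2 scale for the type I-like sum, 0.26 and -0.20 for Bst2, 0.60 and -0.18 for Ifi27l2a, and 0.49 and -0.51 for Rtp4. In macrophage-like cells it was -0.22 and 0.14 for Ifi27l2a. Anti-PD-L1 over untreated in wild-type and knockout libraries was -0.83 and 0.82 for Iigp1 in CD8 T cells (57 to 137 UMIs per library), 0.42 and -0.30 for Rsad2 in melanoma-like cells, and 0.27 and -0.49 for Gbp4 in melanoma-like cells. Without the cell richest in the gene of each library, an alternative chosen after the data were seen, Rsad2 in melanoma-like cells was 0.23 and 0.16, since 158 of 464 UMIs of the knockout untreated library lay in 1 cell. Ifi27l2a in macrophage-like cells was then -0.096 (-0.19 to 0.0039) and 0.16, and Gbp4 in melanoma-like cells 0.18 (-0.045 to 0.41) and -0.48, so these 3 no longer had opposite signs with both intervals off 0. The CD8 T cell values of Bst2, Ifi27l2a, Rtp4 and Iigp1 kept their signs, with intervals off 0.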

How the results depend on the processing

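Of 80 recomputed CD8 T cell differences of list sums, 51 moved by less than their counting interval, 28 moved further and 1 changed sign. For the type I-like sum, knockout over wild-type without anti-PD-L1 (0.52) became 0.57 with the first listing, 0.59 with a stricter cell filter, 0.47 with at most 1 macrophage or melanoma marker UMI, 0.17 without cell cycle UMIs, 0.60 with TMM and 0.38 without Ifi27l2a. With anti-PD-L1 (-0.14) it became 0.015 without cycling clusters, -0.089 without cell cycle UMIs, -0.20 with TMM, -0.065 with cells weighted equally, -0.071 without Ifi27l2a and -0.081 with clusters weighted equally. Anti-PD-L1 in wild-type (0.87) became 0.93, 0.97, 0.28, 1.01, 0.75 and 0.79 with the first listing, stricter filter, no cell cycle UMI, TMM, equal cells and no Ifi27l2a. In knockout (0.22) it became 0.26 with at most 1 marker UMI, 0.031 without cycling clusters, 0.028 without cell cycle UMIs, 0.34 without Ifi27l2a and 0.021 with equal clusters. For the gamma-like sum, the knockout with anti-PD-L1 became 0.28 without cycling clusters and 0.29 without cell cycle UMIs. Anti-PD-L1 in wild-type became 0.59 with TMM and 0.58 without Ifi47, and in knockout 0.50 with equal cells and 0.30 with equal clusters. The cause was not tested.

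Counts of type I-like genes past 1.5-fold, here in both directions together, followed the floor. For the knockout without anti-PD-L1, 6 became 2 at 50 CPM and 12 with no floor (10 higher, 2 lower). For anti-PD-L1 in wild-type, 11 became 4 at 50 CPM and 23 with no floor (22 higher, 1 lower). At 2-fold they were 1 and 7. For the knockout with anti-PD-L1, 0 became 3 with no floor (1 higher, 2 lower). For anti-PD-L1 in knockout, 1 became 0 at 50 CPM and 9 with no floor (8 higher, 1 lower). Of gamma-like genes, 0 for the knockout with anti-PD-L1 became 1 with no floor. For anti-PD-L1 in wild-type 1 became 3 with no floor (2 higher, 1 lower) and 2 with the first listing or TMM. In knockout 0 became 2 with no floor and 1 with the first listing. The shares of all genes at these floors and at 2-fold are not given. With TMM, 66.9%, 26.1%, 52.4% and 71.8% of all called genes were higher in the 4 comparisons, against 53.3%, 42.7%, 35.5% and 72.6%, and the all-gene median for anti-PD-L1 in wild-type moved from -0.18 to -0.04. No paired analysis was possible because each group is 1 library, for which no library can be left out. Without cycling clusters, the wild-type untreated library kept 21 CD8 T cells and gave no value. In macrophage-like cells, leaving out Ifi27l2a gave 0.47, 0.40, 0.19 and 0.12 for the 4 comparisons in place of 0.26, 0.34, -0.06 and 0.02. Leaving out the cell richest in Rsad2 turned anti-PD-L1 in knockout melanoma-like cells from -0.30 to 0.16. These, the cell cycle and the equal cluster settings were chosen after the data were seen.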

Other observations

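Ifnb1, the gene of interferon beta, had 0 UMIs in CD8 T cells of all 4 libraries and 8 UMIs in macrophage-like cells of the knockout anti-PD-L1 library, all 8 in 1 cell. Melanoma-like cells of that library held 1 more UMI.

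The type I-like and gamma-like counts of single thinned cells had a Pearson's r from 0.33 to 0.55 in melanoma-like cells of the 4 libraries (918, 68, 187 and 50 cells) and from 0.13 to 0.39 in macrophage-like cells. In CD8 T cells r was 0.11 to 0.35, on a median of 1 gamma-like UMI per cell. The values describe cells of 1 library each, which share its depth and capture.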
